A study of Mus musculus with 9 samples.

Results

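Krüppel-like factors are transcription factors with C2H2 zinc fingers at the C terminus that bind GC-rich and CACCC sequences. The 8 genes described here are Klf2, Klf3, Klf4, Klf5, Klf9, Klf10, Klf13 and Klf16, matched by symbol to 8 of the 52636 Ensembl gene IDs in the count table. Klf2, Klf4 and Klf5 act mainly as activators and have overlapping roles in the self-renewal of mouse embryonic stem cells, where Klf4 is a known target of leukaemia inhibitory factor (LIF) and STAT3. Klf3 recruits the corepressor CtBP, and Klf9, Klf10, Klf13 and Klf16 recruit the corepressor SIN3A.

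RNA was sequenced from 9 samples of mouse embryonic stem cells, in 3 lines with 3 libraries each. The reference line, 44C6, lacks Nanog and has the title NanogKO and the genotype N{delta}. Line 44J (NanogKO:Esrrb, below the Esrrb line) and line 44JN (NanogKO:Esrrb:Nanog, below the Esrrb+Nanog line) share 1 genotype label, N{delta}:cE:iN, and were told apart by title. All 3 lines therefore carry the Nanog deletion. All cells were untreated, grown with 10% serum and LIF at 1000 U per ml, and sorted as PECAM-positive and PDGFRA-negative. The labels do not give the strain, what drives the added genes, or whether replicates were separate cultures, so p-values measure only the spread between these libraries. Each group is 1 line, so effects of an added gene and of its line cannot be told apart.

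Library totals ran from 21808120 to 32496267 counts. The titles' genes were at their lowest in the Nanog-null line, where Nanog lay between 14.3 and 16.02 CPM (counts relative to library size, with a scaling factor per library), against 29.7 to 35.1 CPM in the Esrrb line and 221 to 333 CPM in the Esrrb+Nanog line. Esrrb lay between 253 and 303, 692 and 949, and 1056 and 1151 CPM in the same order of lines. Reads of the deleted or added copy were not separated from those of the rest of either gene. All 7 embryonic stem cell markers examined were above 1 CPM in every library, and their summed level was 3199 to 3723 CPM. Within that sum, mean Lin28a went from 622 to 432 to 273 CPM in the order of lines above. Mean Zfp42 went from 349.5 to 634 to 725 CPM. The summed level of 7 trophoblast markers was 55.2 to 197 CPM in Nanog-null cells, 21.9 to 26.5 in Esrrb cells and 29.4 to 36.8 in the Esrrb+Nanog line. For 7 fibroblast markers the ranges were 16.3 to 86.2, 10.7 to 16.7 and 10.6 to 18.5 CPM, and for 7 primitive endoderm markers 11.5 to 35.9, 27.5 to 62.9 and 13.8 to 22.2 CPM. The Nanog-null maximum of each of these 3 lists was in replicate 2. The trophoblast factor Elf5 had at most 3 counts in any library, too few to be tested. In Nanog-null replicate 2, Krt8 (74.2 CPM) and Krt18 (102 CPM) made up most of the trophoblast sum. Acta2 (54.3 CPM) made up most of the fibroblast sum there. The sums hide opposite moves. In Esrrb against Nanog-null cells, 1 of 5 fibroblast markers tested was higher (Thy1, mean 2.27 to 8.96 CPM) and 3 were lower. Of 6 primitive endoderm markers tested, 3 were higher and 1 was lower (Dab2, 11.9 to 4.73 CPM). Of 6 trophoblast markers tested, 5 were lower and 1 was not called (Eomes, 8.22 to 7.64 CPM). Of the 7 embryonic stem cell markers, 3 were higher and 1 was lower (Lin28a). These calls are from the edgeR test used below, by which 24.2% of all tested genes were higher and 24.2% lower. In bulk RNA, fewer cells of a type and less RNA per cell cannot be told apart.

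Upstream sequence is shown for Klf4 and Klf2, the 2 genes called in opposite directions between the Esrrb+Nanog line and the Esrrb line. Sequences are from RefSeq, build GRCm38.p6, and windows of 250 bases before to 50 after a start were matched for Klf2, Klf3, Klf4, Klf9 and Klf13 and not for Klf5, Klf10 and Klf16. Each is printed 5′ to 3′ on the gene's strand and stops before the first annotated transcribed base. Capitals mark GGGGCGGGG, the letters of an Sp site, or its reverse complement.
Klf4, minus strand, chr4:55532476-55532725: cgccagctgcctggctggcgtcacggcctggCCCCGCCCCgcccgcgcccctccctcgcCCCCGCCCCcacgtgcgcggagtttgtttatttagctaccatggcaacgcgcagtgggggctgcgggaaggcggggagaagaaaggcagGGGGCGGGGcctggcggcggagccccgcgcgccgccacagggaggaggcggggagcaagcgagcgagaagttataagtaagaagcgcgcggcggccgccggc
Klf2, plus strand, chr8:72318812-72319032: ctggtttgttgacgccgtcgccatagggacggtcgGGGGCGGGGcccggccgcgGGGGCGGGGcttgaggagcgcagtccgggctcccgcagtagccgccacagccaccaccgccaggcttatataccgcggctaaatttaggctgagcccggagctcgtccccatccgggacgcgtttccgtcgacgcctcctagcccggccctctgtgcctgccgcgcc

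Of 4 motifs searched on both strands of the whole windows, GGGGCGGGG was found in 4 of the 5 genes with a window, against 11.4% of all 32851 windows. Klf4 held 3 matches, beginning at -219, -191 and -102 from the RefSeq start, and Klf2 held 2, at -215 and -196. Klf3 and Klf13 held 1 each. The letters GGGNGTGG, a Krüppel-like factor site, were found in Klf13 only among these 5, against 17.6% of all windows. AAGGTCA, a site of estrogen-related receptors such as Esrrb, and TTCCNGGAA, a STAT site, were in none of the 5, against 4.72% and 1.15% of all windows. No matches overlapped in these genes. The upstream stretches were rich in G and C, 59.6% in Klf9 (250 bases) to 79.5% in Klf3 (117 bases). The median over all windows was 52.4%, with 250 bases taken from each. The matches in Klf3 and Klf13, the gene that rose with Klf4 and the gene that fell, are shown with the bases around them. The 3 Klf13 matches are the reverse complement of the letters.
Klf3, Sp letters in capitals, plus strand, chr5:64803322-64803351: cgcgggaggcgGGGGCGGGGaagggcaggg
Klf13, Krüppel-like factor letters in capitals, minus strand, chr7:63939059-63939087: tctaccactggCCACGCCCctcctgaggc
Klf13, Krüppel-like factor letters in capitals, minus strand, chr7:63938921-63938949: cccggccccgcCCACCCCCggggccggtc
Klf13, Sp letters in capitals, minus strand, chr7:63939030-63939059: cgctccaggctCCCCGCCCCcttcgtgcgc

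The first question is which of the 8 genes differ where cells without Nanog have added Esrrb. Klf4, Klf5 and Klf3 rose, Klf13 and Klf10 fell, and Klf2, Klf9 and Klf16 were not called. All 8 genes passed the low-count filter, and 5 were called by edgeR's quasi-likelihood test at an adjusted p under 0.05, where 48.5% of all 16198 tested genes were called (24.2% higher and 24.2% lower). Libraries of the 2 lines did not overlap for 3 genes that were higher and 2 that were lower, 5 of 8 in all, against 58.4% of tested genes (29.4% higher and 29.0% lower). The median log2 change was 0.15 over the 8 genes and 0.006 over all tested genes.

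Klf4 (ENSMUSG00000003032, mm10 chromosome 4, 55527143 to 55532466, GENCODE M21) is the reprogramming factor of the group. It was at 5.79, 7.43 and 6.72 CPM in Nanog-null cells and at 108, 171 and 103 CPM in Esrrb cells. Every Esrrb library lay above every Nanog-null library, and Esrrb replicate 2 stood above the other 2 of its line. The log2 change was 4.25 ± 0.19 (SE, edgeR adjusted p = 3.42e-08, 95% interval 3.83 to 4.67), the 65th highest of 16198 genes, and 3.98 without Esrrb replicate 2. Klf5 (ENSMUSG00000005148, chromosome 14, 99298691 to 99315036), which also acts in the trophoblast lineage of the embryo, was at 94.4, 113 and 127 CPM in Nanog-null cells. In the Esrrb libraries it was at 246, 245 and 244 CPM, values within a coefficient of variation of 0.5%. Its log2 change was 1.13 ± 0.09 (SE, edgeR adjusted p = 1.91e-06).

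Klf2 (ENSMUSG00000055148, chromosome 8, 72319033 to 72321656), whose protein is marked for degradation by ERK signalling, was at 354, 381 and 413 CPM in Nanog-null cells. It was at 376, 352 and 378 CPM in Esrrb cells, and the lines overlapped. Its log2 change was -0.05, with a 95% interval of -0.23 to 0.12 (edgeR adjusted p = 0.602). A change of Klf2 as large as that of Klf5 or Klf4 lies outside this interval.

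Klf3 (ENSMUSG00000029178, chromosome 5, 64803388 to 64832901), the CtBP-binding repressor, was at 103, 100.5 and 99.5 CPM in Nanog-null cells and at 137, 143 and 142 CPM in Esrrb cells. The lines did not overlap, and its log2 change was 0.48 ± 0.06 (SE, edgeR adjusted p = 3.22e-05). Klf3 shares 404 exon bases with Gm20033 on the opposite strand, and how strand was counted is not stated in the labels. All 9 libraries together held 427 counts for Gm20033, against 2216 to 4532 for Klf3 in each library.

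Of the 4 SIN3A-binding genes, Klf13 and Klf10 fell. Klf13 (ENSMUSG00000052040, chromosome 7, 63886351 to 63938915), known as an activator of the chemokine gene Ccl5 in T cells, was at 139, 171 and 148 CPM in Nanog-null cells and at 115, 90.8 and 110.2 CPM in Esrrb cells. Its log2 change was -0.54 ± 0.09 (SE, edgeR adjusted p = 0.000627). Klf10 (ENSMUSG00000037465, chromosome 15, 38291463 to 38300706), an early gene of TGF-beta signalling, was at 93.7, 85.0 and 94.0 CPM and then at 70.5, 71.4 and 75.5 CPM. Its log2 change was -0.33 ± 0.07 (SE, edgeR adjusted p = 0.00204). Neither gene's libraries overlapped between the lines.

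Klf9 (ENSMUSG00000033863, chromosome 19, 23141226 to 23168134), a glucocorticoid-induced and thyroid hormone-induced gene, was at 214, 222 and 231 CPM in Nanog-null cells and 253, 226 and 255 CPM in the Esrrb line. Klf16 (ENSMUSG00000035397, chromosome 10, 80567124 to 80577321) was at 66.4, 71.4 and 73.9 CPM and at 77.9, 86.5 and 73.1 CPM. The lines overlapped in both genes. The 95% intervals of their log2 changes were -0.03 to 0.31 for Klf9 and -0.05 to 0.38 for Klf16. Without Nanog-null replicate 2, which was high in the trophoblast and fibroblast lists, the 5 called genes of the family kept their calls, with log2 changes of 4.32 for Klf4, 1.13 for Klf5, 0.46 for Klf3, -0.46 for Klf13 and -0.39 for Klf10.

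**Figure D1:**
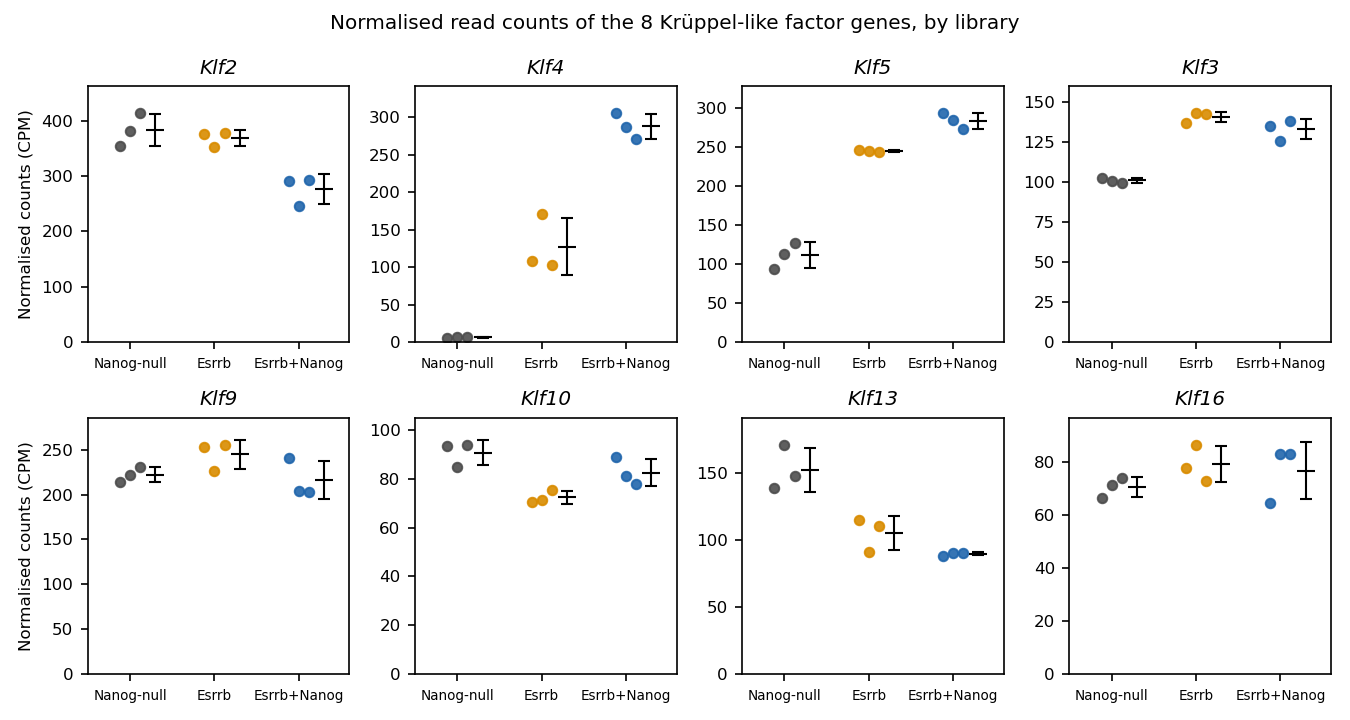
Normalised read counts (CPM, linear axes from 0) of the 8 genes in each of the 9 libraries. Coloured points are libraries and black marks the mean with SD of 3. Klf4 runs from 5.79 to 7.43 CPM in Nanog-null cells to 271 to 305 CPM in the Esrrb+Nanog line, and Klf2 is lowest in the Esrrb+Nanog line.

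The second question is what differs in the Esrrb+Nanog line from the Esrrb line. Esrrb itself was also higher in the Esrrb+Nanog line (log2 change 0.46, edgeR adjusted p = 0.0133), so the lines do not differ in Nanog only. Klf4 rose, Klf2 fell, and the other 6 genes were not called. That is 2 of 8 called by edgeR, where 13.2% of all tested genes were called (5.43% higher and 7.75% lower). With library totals alone as the scaling, the share of higher calls among all genes went from 41.2% to 59.6%, and the calls of Klf4 and Klf2 were unchanged.

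Klf4 was at 305, 287 and 271 CPM in Esrrb+Nanog cells, all above the 3 Esrrb libraries. Its log2 change was 1.18 ± 0.16 (SE, edgeR adjusted p = 0.000708), the 224th highest of 16198 genes, and 1.45 without Esrrb replicate 2. Klf2 was at 292, 246 and 292 CPM, all below the 352 CPM of the lowest Esrrb library. It fell by 0.41 ± 0.08 on the log2 scale (SE, edgeR adjusted p = 0.00577), with a 95% interval of -0.59 to -0.24.

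Klf5 was at 293, 284 and 272 CPM in Esrrb+Nanog cells, above every Esrrb library, and was not called (log2 change 0.21, edgeR adjusted p = 0.143). Klf10, at 88.9, 81.0 and 78.0 CPM, also lay above every Esrrb library (log2 change 0.19, adjusted p = 0.0925). Klf13, at 88.3, 90.6 and 90.2 CPM, lay just below the lowest Esrrb library, replicate 2 at 90.8 CPM (log2 change -0.23, adjusted p = 0.136). In all, 5 of the 8 genes did not overlap between these lines, against 31.6% of all tested genes; 3 were higher (14.9% of all genes) and 2 lower (16.7%). The calls of Klf5, Klf13, Klf10 and Klf9 depended on the setting. Klf5 passed without Nanog-null replicate 1 (adjusted p = 0.0348), without a low-count filter (0.0436) and in a fit of the 2 lines alone (0.039). Klf13 passed without Esrrb replicate 2 (adjusted p = 0.0223, log2 change -0.33) and without a low-count filter (0.0454). Klf10 passed with library totals alone (0.0368), and Klf9 without Esrrb+Nanog replicate 1 (0.0354, log2 change -0.25).

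Klf9 was at 241, 204 and 203 CPM, Klf3 at 135, 126 and 138 CPM and Klf16 at 64.5, 83.0 and 82.9 CPM in Esrrb+Nanog cells, and these overlapped with the Esrrb libraries. In Klf16, replicate 1 lay below the other 2 libraries. The 95% interval of the log2 change was -0.35 to -0.01 for Klf9, -0.20 to 0.04 for Klf3 and -0.26 to 0.17 for Klf16.

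Cells with both factors were also set against Nanog-null cells, a comparison that shares its libraries with both above. Klf4, Klf5 and Klf3 were higher, Klf13 and Klf2 were lower, and Klf9, Klf10 and Klf16 were not called. That is 5 of 8 called by edgeR, where 54.4% of all tested genes were called (27.2% higher and 27.2% lower). The same 5 genes had libraries that did not overlap, 3 higher and 2 lower, against 61.9% of tested genes (31.2% higher and 30.7% lower). The log2 change of Klf4 was 5.43 ± 0.20 (SE, edgeR adjusted p = 4.29e-09), the 25th highest of 16198 genes. Klf5 changed by 1.34 ± 0.09 (SE, edgeR adjusted p = 3.86e-07), Klf3 by 0.40 ± 0.06 (adjusted p = 9.81e-05) and Klf13 by -0.77 ± 0.09 (adjusted p = 3.78e-05). Klf2 changed by -0.47 ± 0.08 (adjusted p = 0.000401). Klf10, which was called lower in the Esrrb line, changed by -0.14 here and was not called (95% interval -0.29 to 0.01, adjusted p = 0.109). Without Esrrb+Nanog replicate 1, Klf10 (-0.20, adjusted p = 0.0275) and Klf16 (0.23, adjusted p = 0.0384) passed and 7 of 8 genes were called. In that fit 8865 of all 16776 tested genes were called.

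**Figure D2:**
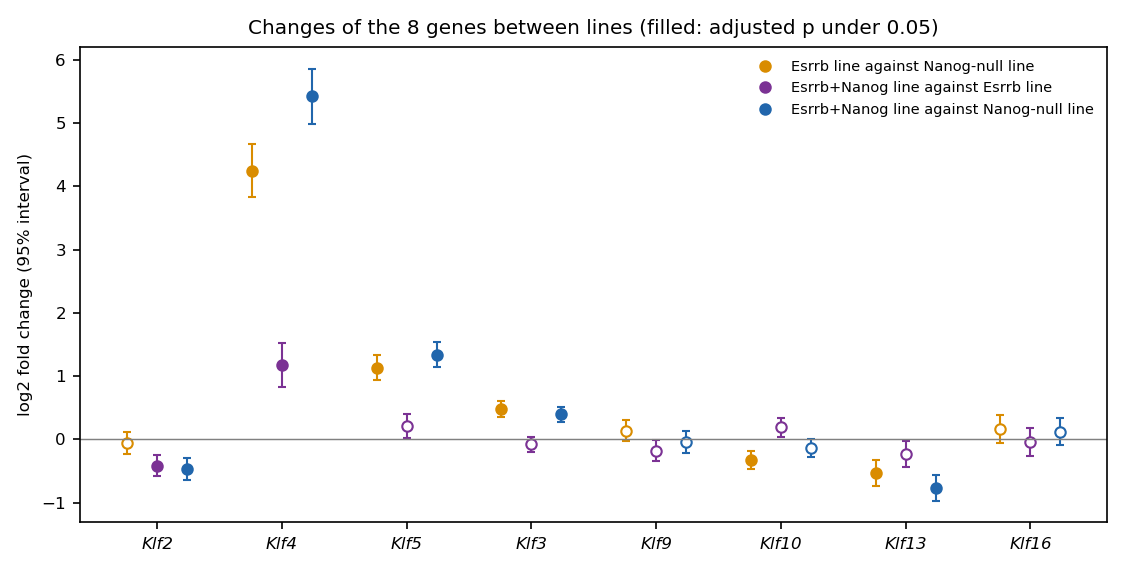
Log2 fold changes of the 8 genes in the 3 comparisons, with 95% intervals. Filled points have an edgeR adjusted p under 0.05 over all tested genes and open points do not. Klf4 is at 4.25, 1.18 and 5.43, and the open points lie between -0.23 and 0.21.

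The genes differed in the order of the lines by mean level. For Klf4 the order was Nanog-null, Esrrb, Esrrb+Nanog from lowest to highest, and each step was called. For Klf5 and Klf3 the Nanog-null line was lowest and the other lines were not called apart. For Klf13 the Nanog-null line was highest and the other lines were not called apart. For Klf2 the Esrrb+Nanog line was lowest, and the Nanog-null and Esrrb lines were not called apart. For Klf10 the Esrrb line was lowest and called apart from the Nanog-null line only. For Klf9 and Klf16 no pair of lines was called apart.

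Levels between genes were compared as CPM per kilobase of annotated exon, a scale that understates genes whose annotated exons are not all used. On this scale Klf2 had the highest level of the 17 Klf genes in every line, at 207 ± 16 (SD, n = 3) in Nanog-null cells, 199.5 ± 8.0 in Esrrb cells and 150 ± 14 in the Esrrb+Nanog line. Klf4 stood 13th in the Nanog-null line at 2.18 ± 0.27, 4th in the Esrrb line at 41.7 ± 12 and 2nd in the Esrrb+Nanog line at 94.4 ± 5.5. In the Esrrb line the neighbours Klf4, Klf5 (47.1 ± 0.22) and Klf9 (50.9 ± 3.4) lay within the spread of Klf4. Klf5 stood 6th in the Nanog-null line at 21.5 ± 3.2, beside Klf10 at 21.7 ± 1.2 and Klf13 at 20.3 ± 2.2, which lay within its spread, and 3rd in the other lines. Klf3, with the longest annotated exons (11243 bases), stood 10th in every line, at 8.97 to 12.5.

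The summed length-scaled level of the 8 genes was 331 to 377 CPM per kilobase in the Nanog-null libraries, 411 to 415 in the Esrrb libraries and 398 to 433 in the Esrrb+Nanog libraries. Klf4 made up 0.615% ± 0.062 (SD, n = 3) of this sum in Nanog-null cells, 10.1% ± 3.0 in Esrrb cells and 22.7% ± 1.2 in the Esrrb+Nanog line. Klf2 made up 58.4% ± 0.77, 48.4% ± 2.1 and 36.0% ± 2.4 in the same order. Klf5 made up 6.03% ± 0.51, 11.4% ± 0.058 and 13.1% ± 0.58. Klf2, Klf4 and Klf5 together made up 65.1% ± 1.2, 69.9% ± 0.78 and 71.8% ± 0.86, so the make-up within the 3 genes moved more than their joint share. Within the 3 alone, the share of Klf2 was 89.8%, 69.2% and 50.1% and that of Klf4 0.946%, 14.4% and 31.6% in the same order of lines. These shares carry no test, and a share falls where another gene of the sum rises.

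**Figure D3:**
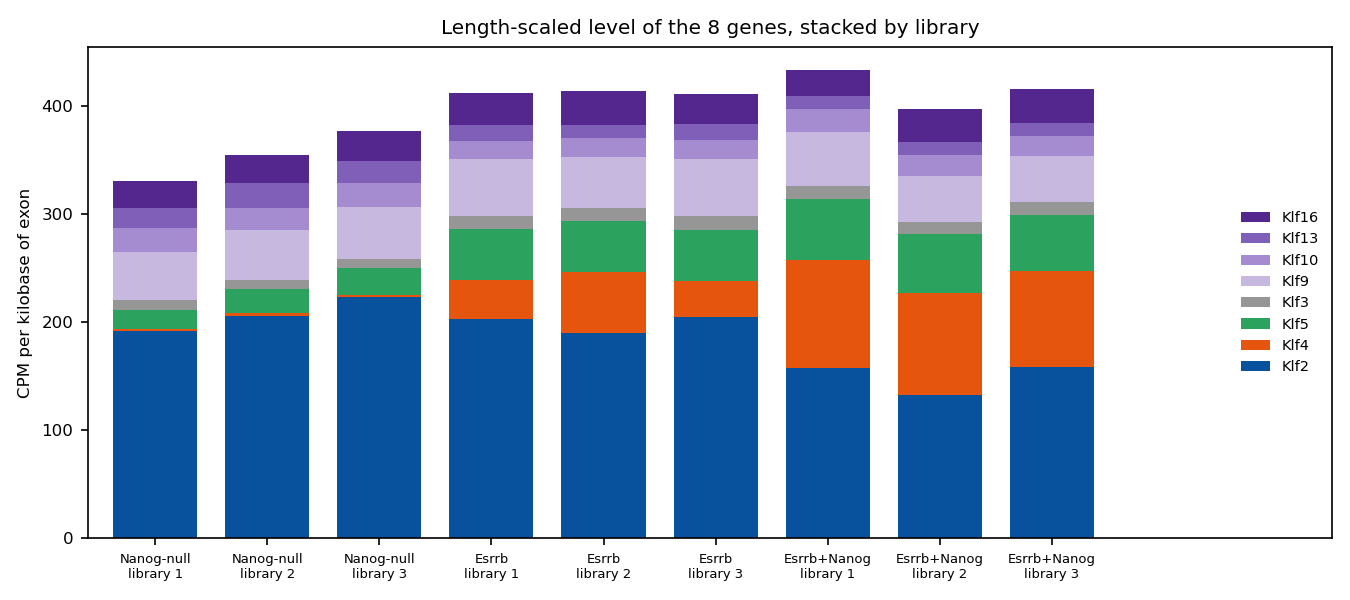
Level of the 8 genes as CPM per kilobase of exon, stacked for each of the 9 libraries on a linear axis from 0. The Klf4 segment (orange) is 0.615% of the sum on average in Nanog-null cells and 22.7% in the Esrrb+Nanog line, and the Klf2 segment (blue) goes from 58.4% to 36.0%.

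Of the 9 other Klf genes, 7 passed the low-count filter, and Klf14 and Klf17, with at most 8 counts in any library, did not. In Esrrb cells against Nanog-null cells, 2 were higher, 3 were lower and 2 were not called. Klf6, a growth suppressor, was at 134, 157 and 129 CPM in Nanog-null cells and 88.6, 86.2 and 89.0 CPM in Esrrb cells (log2 change -0.67, edgeR adjusted p = 0.000147). Klf7, which acts in neurons, fell by 0.85 and Klf11, a TGF-beta-induced SIN3A-binding factor, by 0.59 on the log2 scale. Klf8, a CtBP-binding repressor like Klf3, rose by 0.62 (adjusted p = 0.00156), and Klf15, a metabolic regulator of liver and muscle, by 0.48 (adjusted p = 0.016). The call of Klf15 was lost without Nanog-null replicate 1 (adjusted p = 0.0654), Nanog-null replicate 2 (0.0539) or Esrrb replicate 3 (0.059). Between the Esrrb+Nanog and Esrrb lines edgeR called none of the 7, where 2 had an unadjusted p under 0.05 and DESeq2 called 1. DESeq2 called 2444 of all 16198 tested genes there. The share of all genes with an unadjusted p under 0.05 was not worked out. Klf6 was the nearest to the threshold (log2 change -0.32, adjusted p = 0.0501) and passed with DESeq2 (0.0258), without a low-count filter (0.00195), and without Esrrb+Nanog replicate 1 (0.0131) or Nanog-null replicate 2 (0.0398). Klf7 (0.0294) and Klf15 (0.0348) passed without Esrrb+Nanog replicate 1 and Klf12 (0.0412) without Esrrb replicate 2, all lower in cells with both factors. Without a low-count filter Klf12 (0.00693) and Klf15 (0.0376) also passed. Against the Nanog-null line, the Esrrb+Nanog line had 1 higher and 3 lower of 7. Among all tested genes, edgeR called 48.5% in the first of these comparisons, 13.2% in the second and 54.4% in the third.

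Sp factors bind the same GC-rich letters through related zinc fingers. Of 9 Sp genes, 6 passed the filter, with 3 higher and 1 lower in the Esrrb line than in the Nanog-null line. The shares of all tested genes called were again 48.5%, 13.2% and 54.4% in the 3 comparisons. Sp1 was at a mean of 301 CPM in Nanog-null cells, 355 in Esrrb cells and 320.2 in the Esrrb+Nanog line, and edgeR called it in no comparison. Between Esrrb and Nanog-null cells its log2 change was 0.24 (edgeR adjusted p = 0.0537). There it passed with DESeq2 (0.0451), which called 5 Sp genes against edgeR's 4, and 7613 of all 16198 tested genes. Sp1 also passed without a low-count filter (0.00503), and with either Nanog-null replicate 1 (0.0189) or Esrrb replicate 2 (0.0149) left out. Sp5, a Wnt target, rose by 1.87 on the log2 scale but reached a mean of only 1.36 CPM (edgeR adjusted p = 0.017), and Sp8, at means of 1.61 and 0.616 CPM, fell by 1.42 (adjusted p = 0.00709). The call of Sp5 was lost without Esrrb replicate 2 (adjusted p = 0.0938) and without Nanog-null replicate 1 or 3, and those of Sp2 and Sp3, at 0.26 and 0.18, also rested on single libraries. Sp3 was not called with library totals alone (adjusted p = 0.0712). Between the Esrrb+Nanog and Esrrb lines edgeR called none of the 6, where 1 had an unadjusted p under 0.05 and DESeq2 called 0. DESeq2 called 2444 of all 16198 tested genes there, and the share with an unadjusted p under 0.05 was not worked out. Against the Nanog-null line 2 were higher and 1 was lower.

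**Figure D4:**
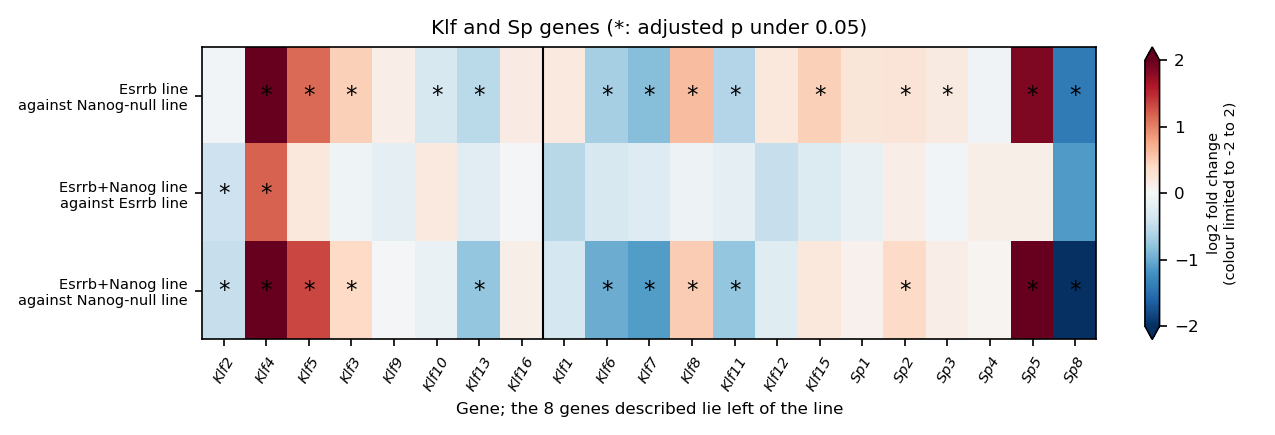
Log2 fold changes of the 8 genes (left of the line) and of the other Klf and Sp genes that passed the low-count filter, in 3 comparisons. Red is higher and blue lower in the line named first, colours stop at -2 and 2, and a star marks an edgeR adjusted p under 0.05. In the middle row the stars are on Klf2 and Klf4.

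Genes of the LIF pathway were examined from a list of 9 that also holds inhibitors, among them Pias3 and Socs3. In Esrrb cells against Nanog-null cells, 5 of 9 were higher, Socs3 included, and 1 was lower. The test called 48.5%, 13.2% and 54.4% of all tested genes in the 3 comparisons. The kinase gene Jak1 went from a mean of 67.7 to 119 CPM (log2 change 0.81, edgeR adjusted p = 4.83e-06) and Stat3, the factor it activates, from 59.6 to 137 CPM (1.20, adjusted p = 1.44e-05). Pias3, an inhibitor of STAT3, fell by 0.78 on the log2 scale (adjusted p = 1.57e-05). Between the Esrrb+Nanog and Esrrb lines 1 of 9 was called, Stat3, which rose by 0.55 (adjusted p = 0.0122; 0.0619 without Esrrb replicate 1), while Jak1 (0.19, adjusted p = 0.0952) and the receptor gene Il6st (-0.20, adjusted p = 0.0909) were not called. Against the Nanog-null line, Esrrb+Nanog cells had 4 of 9 higher and 1 lower, with Stat3 at 1.75, Jak1 at 1.00 and Pias3 at -0.68 on the log2 scale.

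Within the Esrrb line, the library with the highest Klf4 was also the highest in Stat3 and Socs3, a feedback inhibitor induced by STAT3 and chosen here after its values were seen. Stat3 was at 120.2, 173 and 116 CPM in replicates 1, 2 and 3, and Socs3 at 106, 287 and 93.5 CPM. Esrrb was also highest in replicate 2, at 949 CPM against 769 and 692. The summed primitive endoderm markers were highest there too, at 62.9 CPM against 27.5 and 52.5. That peak came from Gata6 (39.0 CPM against 13.5 and 22.9), and every other marker of that list was highest in replicate 3. Of the naive network factors named below, Tbx3, Tfcp2l1 and Nanog were also highest in replicate 2, and Nr0b1 and Prdm14 were not. The part of any of these in the Klf4 value of this library was not tested. Klf5 did not move with Klf4, Stat3, Socs3 or Esrrb, at 246, 245 and 244 CPM. Socs3 was higher in the Esrrb line than in the Nanog-null line (log2 change 2.34, edgeR adjusted p = 0.000184), and the change was 1.64 without Esrrb replicate 2 (adjusted p = 2.55e-07). It was not called between the Esrrb+Nanog and Esrrb lines (0.51, adjusted p = 0.338), but was without Esrrb replicate 2 (1.21, adjusted p = 1.95e-05).

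**Figure D5:**
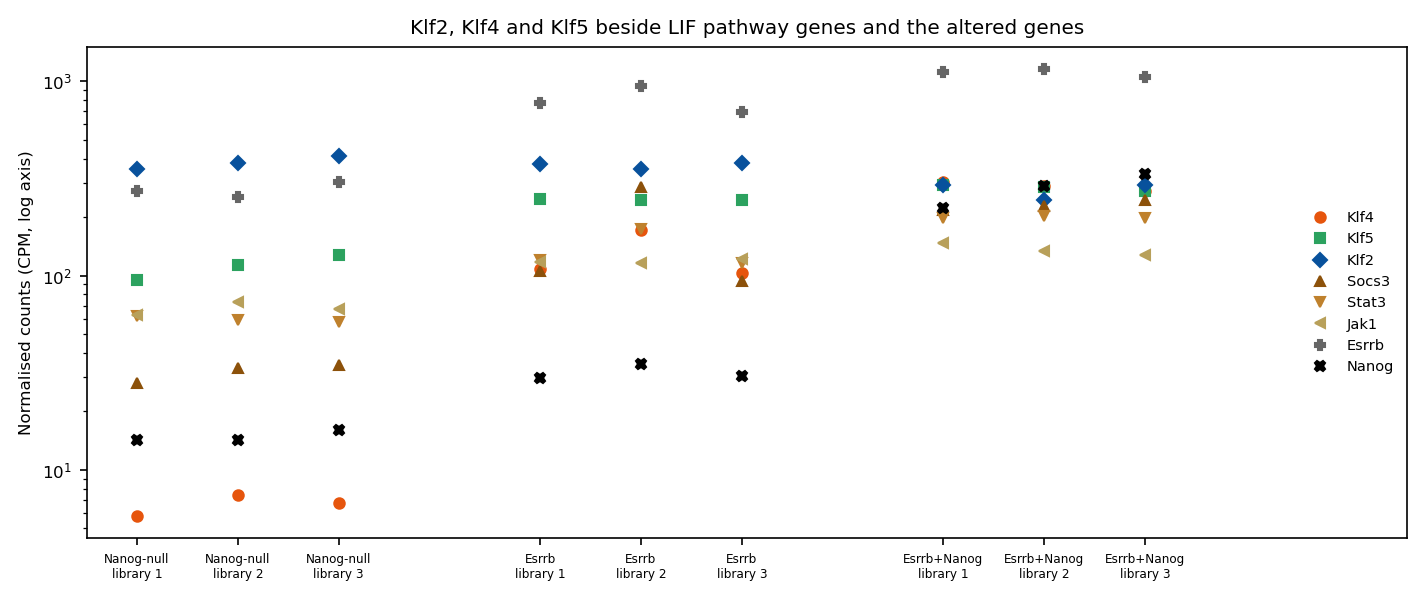
Normalised read counts (CPM, log axis) of Klf2, Klf4 and Klf5 beside Jak1, Stat3 and Socs3 and the altered genes Esrrb and Nanog, 1 point per library. Klf4, Stat3 and Socs3 are highest in library 2 of the Esrrb line (171, 173 and 287 CPM), where Klf5 is at 245 CPM.

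Corepressor partners of the repressing members moved both ways. Of 10 genes, 5 were higher and 2 lower in the Esrrb line than in the Nanog-null line. Over all tested genes the share called was 48.5% there, 13.2% between the Esrrb+Nanog and Esrrb lines and 54.4% in the third comparison. The deacetylase gene Hdac2 rose by 0.78 and Ctbp2, the partner of Klf3, by 0.29 on the log2 scale (edgeR adjusted p = 4.25e-06 and 0.00119). From the Esrrb to the Esrrb+Nanog line, 1 was higher and 2 were lower. Sap30, a SIN3A complex subunit, fell by 0.30, Ctbp2 fell by 0.28 and Rcor1, a scaffold of the LSD1 complex, rose by 0.30 (adjusted p = 0.0064, 0.00726 and 0.0202). The call of Rcor1 was lost without any 1 of 4 libraries, Esrrb replicates 1 and 3 and Esrrb+Nanog replicates 2 and 3 (adjusted p = 0.0603 to 0.0857). Against the Nanog-null line, Esrrb+Nanog cells had 3 higher and 3 lower, among them Sin3b, which fell by 0.36 (adjusted p = 0.000238), and Hdac2 was at 0.58.

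Genes that modify or degrade Krüppel-like factor proteins numbered 14. In Esrrb cells against Nanog-null cells, 3 were higher, 3 lower and 8 not called. For all tested genes, the shares called were 48.5%, 13.2% and 54.4% in the 3 comparisons. Mapk3, the gene of the kinase ERK1, fell from a mean of 159 to 94.4 CPM (log2 change -0.75, edgeR adjusted p = 3.87e-06), the ubiquitin ligase gene Fbxw7 rose by 0.26 (adjusted p = 0.00809) and the kinase gene Map2k1 by 0.24 (adjusted p = 0.0104; 0.0583 without Nanog-null replicate 1). None was called by edgeR between the Esrrb+Nanog and Esrrb lines, where 3 had an unadjusted p under 0.05 and DESeq2 called 1. In that comparison DESeq2 called 2444 of all 16198 tested genes, and the share with an unadjusted p under 0.05 was not worked out. There Mapk3 was at -0.21 (adjusted p = 0.051; 0.0312 without Esrrb replicate 2), Fbxw7 at -0.21 and Btrc at -0.17. Against the Nanog-null line, Esrrb+Nanog cells had 1 higher and 4 lower, with Mapk3 at -0.96, Wwp2 at -0.29 and Smurf1 at -0.29 on the log2 scale.

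Of 14 factors of the naive network, 11 were higher and 1 lower in Esrrb cells than in Nanog-null cells. Calls among all tested genes made up 48.5%, 13.2% and 54.4% in the 3 comparisons. The list holds Esrrb and Nanog, the genes altered in these lines, and both are among the higher genes in each of the 3 comparisons. Tbx3, a T-box factor, rose by 3.19 ± 0.19 on the log2 scale (SE, edgeR adjusted p = 2.56e-07), Nr0b1, a nuclear receptor, by 1.84 and Tfcp2l1, a CP2-family factor, by 1.74. From the Esrrb to the Esrrb+Nanog line 4 were higher and 5 lower. Nanog rose by 3.15, Prdm14, a germ cell and naive factor, by 0.93 and Esrrb by 0.46, a call lost without Esrrb replicate 1 (adjusted p = 0.0633) or Esrrb+Nanog replicate 2 (0.0544). Against the Nanog-null line, Esrrb+Nanog cells had 10 higher and 2 lower, with Nanog at 4.24, Nr0b1 at 2.18 and Esrrb at 2.00.

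Genes whose pattern was most like that of Klf4, Klf5 and Klf2 were named by the highest Pearson r of log2 CPM over the 9 libraries, among 10564 genes with a mean of at least 5 CPM in 1 line. The 9 libraries share 3 lines, and r is a description with no test. For Klf4 the 3 genes were Tmco1, a membrane calcium channel gene (r = 0.996), Kdelr3, a receptor that returns proteins to the endoplasmic reticulum (0.996), and Ap4m1, an adaptor complex subunit (0.996). Kdelr3 had a mean of 5.27 ± 0.67 CPM in Nanog-null cells (SD over 3 libraries), which went to 23.4 ± 4.6 in the Esrrb line and 33.4 ± 3.6 in the Esrrb+Nanog line, a smaller range than that of Klf4. For Klf5 they were Gripap1 (0.992), Zfpl1 (0.991) and Tbx3 (0.991), which was at 36.0 ± 10, 330 ± 66 and 369 ± 8.6 CPM. For Klf2 they were the aldehyde dehydrogenase gene Aldh1b1 (0.975), BC052040 (0.96) and the myosin-binding gene Mybpc2 (0.949). Aldh1b1 was at 15.6 ± 1.8, 14.5 ± 2.7 and 7.41 ± 1.4 CPM. An r over 0.95 was reached by 590 genes for Klf4, by 405 for Klf5 and by 2 for Klf2. Ranked by Spearman's rho, none of the 9 genes stayed among the 3 most like its factor. Ties at the highest rho, 11 genes for Klf4 and 3 for Klf5, fill those places. By rho, Kdelr3 stood 12th for Klf4, Tmco1 126th and Ap4m1 219th.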

How the data were processed

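Libraries were made from ribosome-depleted total RNA of sorted cells, per the labels' protocols. The submitters' processing notes name bcl2fastq 2.19.1, STAR 2.5.3a and build mm10 without roles. The deposited values are raw read counts per Ensembl gene, per the file headers and the values; the labels do not state strand or annotation settings. The table had 15 columns; 9 matched the samples by name and the other 6 were not used.

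Symbols were found for 52403 of 52636 IDs, and positions and exon lengths came from GENCODE M21 (mm10). In R 4.3.3, edgeR 4.0.16 kept 16198 genes by its default low-count rule, scaled libraries by trimmed mean of M values, and fitted 1 quasi-likelihood model to the 9 libraries, with a term for line and no other. P-values of the 3 comparisons were adjusted by Benjamini-Hochberg over all tested genes (threshold 0.05). Adjusted p-values in the text come from edgeR where no other tool is given. Standard errors were worked back from the F statistic, and 95% intervals used its degrees of freedom. The smallest p of an exact two-sided permutation test for 3 against 3 is 0.1. The fit was also run on simulated counts with the same dispersion for every gene. Genes of these data differ in spread, so that run does not cover them.

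The members and lists were chosen with earlier results of these data known. Named genes were the 8 members, the other Klf and Sp genes, the 3 genes per list and comparison with the smallest adjusted p, and the 3 genes most like Klf2, Klf4 and Klf5 (log2 CPM, prior count 2, predicted genes left out). A gene that this rule names is not reported here. Promoter letters were searched in RefSeq windows (GRCm38.p6). Alternatives were median-of-ratios factors, library totals alone, DESeq2 1.42.0, no low-count filter, a floor of 5 CPM in 3 libraries, a fit of the 2 lines alone, the replicate number as a block, and each library left out in turn.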

Additional observations from a re-analysis of the deposited data

How the results depend on the processing

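The 12 called changes of the 8 genes kept their direction and call under all 16 alternatives of each comparison (192 of 192), the replicate block included. The count of genes of the family called between the Esrrb+Nanog and Esrrb lines was 2. It was 4 with no low-count filter, where 2935 of all 32252 tested genes were called. Without that filter the standard errors of the 8 genes lay closer together. Between the Esrrb and Nanog-null lines they ran from 0.071 to 0.095, against 0.055 to 0.194 in the main fit. The part of this in the calls was not tested. The count of the family between the Esrrb+Nanog and Esrrb lines ranged from 2 to 3 when 1 library was left out. Over all genes, 2135 were called in that comparison, from 1105 (without Esrrb replicate 1) to 2374 (without Esrrb replicate 2), and 1378 and 1215 without Esrrb replicate 3 or Esrrb+Nanog replicate 2. Same-numbered libraries of different lines correlated between -0.025 and 0.278 in their deviations (median 0.025). Differently numbered ones correlated between -0.329 and 0.224 (median -0.016). The S numbers of the titles run through the 3 lines within each replicate number. The ranges overlap and the labels do not say that the numbers pair samples, so no pairing was assumed in the main fit. With the replicate number as a block the genes of the family called were 5, 2 and 5, and all genes called 7997, 2381 and 8946, in the order of the report. The block also brought Sp1 between the Esrrb and Nanog-null lines (adjusted p = 0.0114) and Klf6 (0.0371) and Klf12 (0.0419) between the Esrrb+Nanog and Esrrb lines past the threshold. Sign changes were seen only in changes that were not called. Between the Esrrb+Nanog and Esrrb lines, Klf16 was at 0.017 with library totals alone and between -0.103 and 0.077 with 1 library left out, Sp3 at 0.013 with library totals alone, and Sp5 between -0.157 and 0.872 with 1 library left out. Between the Esrrb+Nanog and Nanog-null lines with 1 library left out, Klf9 ran from -0.132 to 0.003, Sp1 from -0.002 to 0.163 and Sp4 from -0.03 to 0.119. Between the Esrrb and Nanog-null lines Sp4 ran from -0.191 to 0.014. Of the 9 genes most like Klf4, Klf5 and Klf2, 8 stayed in their top 3 with median-of-ratios factors. No low-count filter tested 32252 genes. The lowest count of any of the 8 genes in a library was 125, for Klf4, so depth limits Klf4 in that library most.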
